A study of Caenorhabditis elegans with 4 samples.

Results

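Small nucleolar RNA (snoRNA) genes were examined in adult C. elegans with and without auxin-induced depletion of ATTF-6, an AT-hook DNA-binding protein of germ nuclei. Members were the genes with the biotype snoRNA in the WBcel235 annotation whose counts summed to at least 15 over the 4 libraries. The deposited tables held 346 annotated snoRNA genes among 46934 gene rows. Of these, 201 met the limit and 145 did not, 81 of which were at 0 in all libraries. The control animals carried the transgene wrdSi51 on chromosome II. It expresses the auxin receptor TIR1 from the germ line promoter mex-5p, joined by F2A to a nuclear mTagBFP2::AID* reporter and followed by the tbb-2 3'UTR. The ATTF-6 depletion animals carried the same transgene and GFP::tev::aid::attf-6, in which the endogenous gene bears a degron tag. Each group had 2 libraries, and animals of both groups were moved at the L4 stage to 4 mM auxin at 20 °C and collected as adults. The degron tag and the loss of the protein cannot be told apart, since the depletion strain was compared with an untagged strain and both received auxin. RNA came from whole animals, so TIR1 acted in one tissue and the counts cover all tissues.

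snoRNAs are short stable RNAs of the nucleolus that guide the modification of ribosomal RNA. Box C/D snoRNAs direct ribose methylation by fibrillarin, and box H/ACA snoRNAs direct pseudouridylation by dyskerin. Each works as a particle, a snoRNP, with a small set of core proteins. In C. elegans many snoRNA genes lie within introns of protein-coding genes, called host genes, and others are transcribed from promoters of their own. The box type of single members was not analysed here, and no snoRNA sequence was read.

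The members were short. They ranged from 61 to 344 bases with a median of 129, and 182 of the 201 were under 200 bases. The library protocol enriched RNAs longer than 200 bases after removal of ribosomal RNA with antisense oligonucleotides and RNase H, so most members lay below the size that the protocol retains. The annotation placed 112 members inside an intron of a protein-coding gene on the same strand, in 97 host genes. Another 71 lay outside protein-coding genes, 14 lay in an intron on the opposite strand, and 4 overlapped an exon on the opposite strand. The last 3 classes are grouped as members elsewhere (n = 89). The counting used strand. Counts were whole numbers for 185 members, and 16 shared reads with other loci and had fractional counts.

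Gene counts per library were 32096525 and 29753993 in control replicates 1 and 2 and 23923423 and 27269737 in ATTF-6 depletion replicates 1 and 2. Members took 0.695% and 0.623% of the gene counts in the control libraries. In the ATTF-6 depletion libraries the share was 1.34% and 0.915%. The mean share was 0.659% ± 0.0513 (SD, n = 2) in controls and 1.13% ± 0.302 (SD, n = 2) upon depletion, a ratio of 1.71. Both depletion libraries were above both control libraries, and replicate 1 exceeded replicate 2 in each group. An exact two-sided permutation test gave p = 0.333, the smallest value that 2 against 2 libraries allow. Other noncoding biotypes also took larger shares upon depletion, with little separation between the groups for snRNA genes. The share of ribosomal RNA is what remained after its removal. The tRNA genes took 0.00274% and 0.00216% in controls and 0.00831% and 0.00408% upon depletion, and ribosomal RNA genes 3.10% and 3.16% in controls and 4.44% and 5.46% upon depletion. The ncRNA biotype took 2.78% and 2.84% in controls and 8.48% and 5.04% upon depletion, and snRNA genes took 0.295%, 0.268%, 0.476% and 0.302% in the same order of libraries. Whether the recovery of short RNA differed between the libraries was not tested.

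More snoRNA genes rose than fell upon ATTF-6 depletion. Of the 201 members, 153 had enough counts for edgeR's quasi-likelihood test, and the 48 others had at most 36 counts in all. At a Benjamini-Hochberg adjusted p under 0.05 over all 16591 genes tested, 61 members were higher and 11 were lower. That is 39.9% of the tested members higher and 7.19% lower. Over all genes tested, 30.9% were higher and 32.1% were lower. The median log2 fold change of the tested members was 0.73 (quartiles 0.00 and 1.14), beside 0.16 for all genes tested. Over all depths together, the share of members called higher thus exceeded the background by a small margin, and the share called lower was far below it. All 72 called members had groups that did not overlap. Of the tested members, called or not, 51.6% had both depletion libraries above both controls and 11.1% had both below, beside 44.1% and 38.2% of all genes tested. With counts scaled to a list of 22 somatic genes in place of all genes, 33 members were higher and 14 lower, beside 13.3% higher and 41.6% lower over all genes. This scaling lowered the median of all genes to -0.32 and that of the members to 0.24. A change of scaling shifts every gene by nearly the same amount. The gap between the medians, 0.57 under both scalings, therefore could not test the choice of scaling.

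Members with more counts, summed over all 4 libraries, were called more often and had a higher median log2 fold change. An increase adds to this sum, so depth and change are not independent. Of the 62 members with at least 1000 counts, 39 (62.9%) were higher, 3 (4.84%) were lower and 20 were not called, with a median log2 fold change of 0.82. Over all 8291 genes of this depth, 28.4% were higher and 50.04% lower. Of the 91 tested members below that depth, 22 (24.2%) were higher and 8 (8.79%) lower, with a median of 0.56. Of all 8300 such genes 33.4% were higher and 14.3% lower, so the members' share called higher was below the background there. Members of 200 bases or more had a median of 0.30 (n = 13 tested) and shorter members 0.75 (n = 140 tested). Among members with at least 1000 counts these medians were 0.31 (n = 6) and 0.89 (n = 56). The difference by length was not tested, and across the 153 tested members Spearman's rho of the log2 fold change with length was 0.02, with all points taken from the same 4 libraries.

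Among members with at least 50 counts in both depletion libraries, the largest increases were in Y43F8C.22, Y59E1B.14, Y75B12B.12, Y71F9AM.7 and F11A10.9. Y43F8C.22 (chromosome V, 19643050 to 19643187, minus strand, 138 bases) lies in an intron of Y43F8C.7. Its level was 20.5 and 18.1 CPM (counts per 1000000 gene counts, after TMM scaling, edgeR's trimmed-mean adjustment for library composition) in controls and 146 and 68.8 CPM upon depletion. Both depletion libraries were well above both controls, and they differed from each other more than the controls did. The log2 fold change was 2.48 ± 0.30 (SE), with an adjusted p of 0.000117 from edgeR, while the host gene fell by 0.32 (adjusted p = 0.0431). Y75B12B.12 (V, 15190976 to 15191093, minus strand, 118 bases) lies outside protein-coding genes and is abundant. It had 93.8 and 74.2 CPM in controls and 560 and 307 CPM upon depletion, a log2 fold change of 2.37 ± 0.26. Y71F9AM.7 (I, 2935785 to 2935920, plus strand) lies in an intron of cogc-3, which encodes a subunit of a Golgi tethering complex. Its level was 45.0 and 39.9 CPM in controls and 264 and 149 CPM upon depletion. The log2 fold change was 2.28 ± 0.24, and that of cogc-3 was -0.79. F11A10.9 (IV, 12086709 to 12086828, plus strand), in an intron of the RNA-binding protein gene rbm-34, had 61.8 and 37.6 CPM in controls and 304 and 166 CPM upon depletion. It rose by 2.24 ± 0.30 on the log2 scale, where rbm-34 fell by 0.55.

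**Figure D1:**
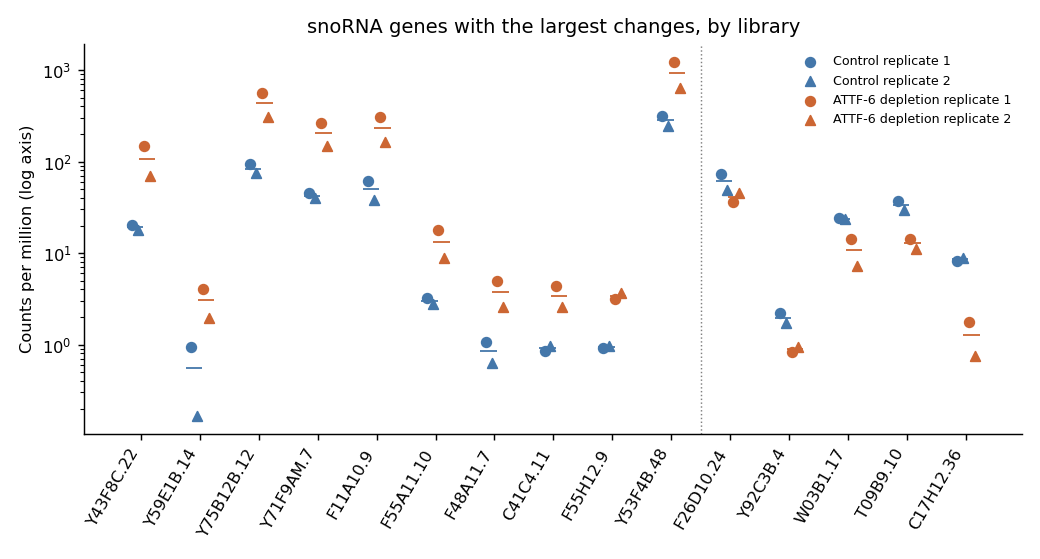
Level of 15 snoRNA genes with called changes, the largest among those that had 50 counts or more in each library of the group with the higher level, in CPM on a log axis, with 1 point per library (circles, replicate 1; triangles, replicate 2) and short lines at the group means. The 10 genes left of the dotted line were higher and the 5 right of it lower upon ATTF-6 depletion; Y43F8C.22 rose from 20.5 and 18.1 to 146 and 68.8 CPM.

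Increases of similar size were seen in members with few counts. Y59E1B.14 (X, 1891509 to 1891629, plus strand) had 31 and 5 counts in controls and 93 and 55 upon depletion, a log2 fold change of 2.40 ± 0.63. It overlaps a tRNA-class pseudogene on the same strand, so its reads cannot be assigned to the snoRNA with certainty. F55A11.10, a member of 91 bases on chromosome V in an intron of F55A11.6, had 105, 83, 403 and 247 counts in control replicates 1 and 2 and depletion replicates 1 and 2. It rose by 2.15 ± 0.32, and its host rose by 0.86. F48A11.7, in an intron of ubxn-3, the gene of a cofactor of the CDC-48 unfoldase, had 35 and 19 counts in controls and 111 and 71 upon depletion. C41C4.11, of 75 bases and outside protein-coding genes, had 28 and 29 counts in controls and 98 and 71 upon depletion. F55H12.9, also outside protein-coding genes, had 30 and 29 counts in controls and 71 and 102 upon depletion. The log2 fold changes of these last 3 members were 2.11, 1.90 and 1.85, with adjusted p of 0.00195, 0.00142 and 0.00059. F55H12.9 was the only member of the 10 with a higher level in depletion replicate 2 than in replicate 1.

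The abundant members, by a level averaged over all 4 libraries, mostly rose as well, with the exception of the most abundant of all. A member that rises can enter this group through its depletion libraries, so the choice favours increases. ZK185.9 (IV, 4538702 to 4538916, minus strand, 215 bases) lies in an intron of ZK185.2 on the opposite strand and took 25.2% and 28.8% of the members' counts in controls and 11.1% and 14.4% upon depletion. Its level was 1727 and 1767 CPM in controls and 1564 and 1286 CPM upon depletion. The log2 fold change of -0.29 ± 0.14 did not pass by edgeR (adjusted p = 0.0932). ZK185.9 was called lower with DESeq2's size factors (-0.43, adjusted p = 0.0163), under DESeq2 (-0.43, adjusted p = 0.00242), with no filter on low counts (-0.33, adjusted p = 0.0232) and after scaling to somatic genes (-0.78, adjusted p = 0.00123). Without ZK185.9 the members' share of gene counts was 0.520% and 0.443% in controls and 1.19% and 0.784% upon depletion. Per kilobase of gene and averaged over the libraries, ZK185.9 was at 7376 CPM and the next member, Y53F4B.48, at 4503 CPM. Y53F4B.48 (II, 15165894 to 15166028, minus strand), outside protein-coding genes, had 315 and 247 CPM in controls and 1234 and 635 CPM upon depletion. Its log2 fold change was 1.73 ± 0.27 (adjusted p = 0.000565 from edgeR).

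The other 8 of the 10 members with the highest level per kilobase, chosen by that average, were all higher. Y75B12B.12 is described above. T24H7.6 had 250 and 201 CPM in controls and 968 and 495 CPM upon depletion, and rose by 1.70. Y74C9A.6, which lies near the left end of chromosome I (3747 to 3909, minus strand), had 149 and 143 CPM in controls and 525 and 349 CPM upon depletion, and rose by 1.58. Y38F2AR.14, W08G11.6, ZK643.9 and Y23H5B.10 had log2 fold changes of 1.56, 1.43, 1.19 and 1.12. In these 7 genes every depletion library was above every control library, and replicate 1 was the higher depletion library. The smallest increase was that of Y24D9A.9, a member of 221 bases in an intron of the ribosomal protein gene rpl-7A, whose counts were 20440.5, 18854.5, 28584 and 25227, in part fractional. It rose by 0.79 ± 0.16 (adjusted p = 0.0025), and the call was lost after scaling to somatic genes (log2 fold change 0.31, adjusted p = 0.145) and without control replicate 2 (0.77, adjusted p = 0.0515). ZK643.9 also had fractional counts.

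Only 5 decreases met the same limits on depth. C17H12.36 (IV, 6792974 to 6793200, plus strand, 227 bases) had 269.5 and 269 counts in controls and 40 and 21 upon depletion. It fell by 2.80 ± 0.34 on the log2 scale (adjusted p = 0.000118), and 1 of its counts was fractional, so part of its reads aligned elsewhere. T09B9.10 (X, 9754602 to 9754743, minus strand, 142 bases) had 1206 and 889 counts in controls and 326 and 311 upon depletion, and fell by 1.38 ± 0.17. W03B1.17 (IV, 4347632 to 4347831, plus strand, 200 bases) had 785, 705, 324 and 199 counts in the order of the libraries above, and fell by 1.16 ± 0.27. All 3 lie outside protein-coding genes. In each of them both depletion libraries were below both controls.

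The remaining pair of decreases lie in introns of genes that were also lower. Y92C3B.4 (III, 1069058 to 1069313, minus strand, 256 bases), in an intron of the splicing factor gene uaf-1, had 72 and 52 counts in controls and 19 and 26 upon depletion. Its log2 fold change was -1.14 ± 0.35 (adjusted p = 0.0189), beside -0.66 for uaf-1, and the call was lost without control replicate 1 (-0.97, adjusted p = 0.153) and under DESeq2 (-1.28, adjusted p = 0.0525). F26D10.24 (IV, 17280046 to 17280169, plus strand), in an intron of the chaperone gene hsp-1, had 2407, 1483, 818 and 1257 counts. It fell by 0.60 ± 0.19, beside -0.72 for hsp-1, and the call was lost without control replicate 1 (-0.29, adjusted p = 0.28). The other 6 members called lower had at most 43.5 counts in a control library, with log2 fold changes from -3.71 to -1.45.

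Intronic members and members elsewhere gave similar values. Of the 87 tested members in introns on the host strand, 37 were higher and 5 lower, with a median log2 fold change of 0.76. Of the 66 tested members elsewhere, 24 were higher and 6 lower, with a median of 0.69. The 51 of these outside protein-coding genes had a median of 0.74, the 11 in introns on the opposite strand 0.64 and the 4 that overlapped an exon on the opposite strand 0.66. The other noncoding classes differed from one another. Among genes of the ncRNA biotype, the median was 0.12 for the 64 in introns on the host strand and 0.43 for the 243 elsewhere. For the 62 tested snRNA genes the median was -0.07 (4 higher, 10 lower), and for the 17 tested tRNA genes it was 1.54 (8 higher and none lower by edgeR, also none lower at an unadjusted p under 0.05). The other 617 of the 634 tRNA genes had too few counts to be tested. A gene with few counts can pass the filter through the group where it is high. The tRNA median and the lack of decreases therefore depend on the filter. By chromosome, member medians ran from 0.46 on chromosome V (30 tested) to 0.83 on chromosome X (9 tested). On chromosome I (29 tested, 15 higher) no member was called lower by edgeR or was lower at an unadjusted p under 0.05. Over all tested members only 7.19% were lower, so the lack of decreases among 29 is not read as a trait of this chromosome.

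**Figure D2:**
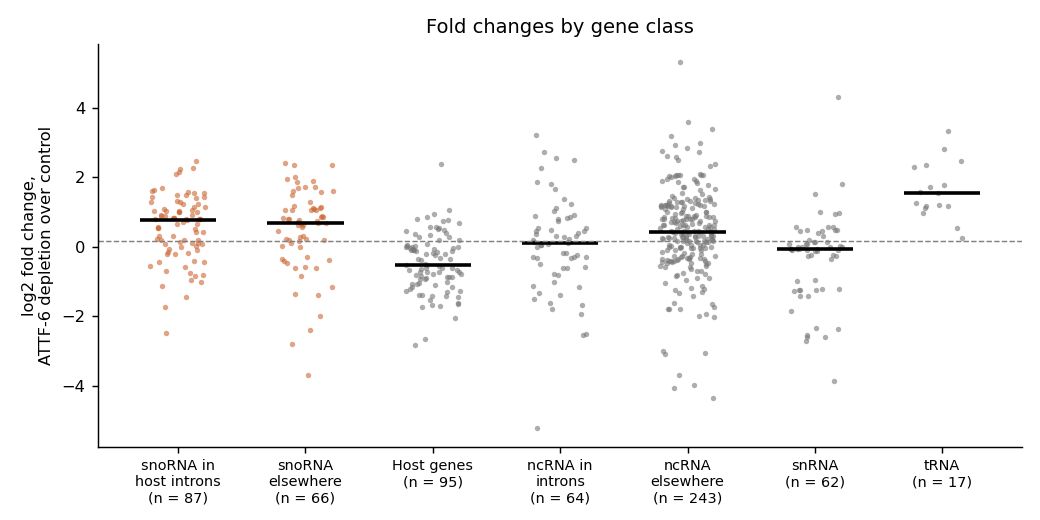
Log2 fold change of ATTF-6 depletion over control for each tested gene (points), by class, with a black line at the class median and a dashed line at the median of all genes tested, 0.16. The medians of intronic and other snoRNA genes, 0.76 and 0.69, lie above the dashed line, and that of the 95 tested host genes, -0.52, lies below it.

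Most host genes fell. Of the 97 hosts of intronic members, 95 were tested, and 52 were lower and 15 higher, with a median log2 fold change of -0.52. That is 54.7% lower and 15.8% higher, beside 32.1% and 30.9% over all genes tested. Most hosts had at least 1000 counts, and of all genes tested at that depth 50.04% were lower and 28.4% higher. The hosts' share called lower was thus near that of genes of this depth, and their share called higher was below it. In 85 member and host pairs both were tested, from 71 hosts. The member's log2 fold change was above that of its host in 70 of the 85, and the median difference was 1.01 (quartiles 0.30 and 1.90). A member was higher where its host was lower in 19 pairs, both were higher in 6, both were lower in 3, and no member was lower where its host was higher. The 45 members whose host fell had a median of 0.79, the 28 whose host was not called 0.58 and the 12 whose host rose 0.86. The medians of the hosts themselves were -1.10, -0.05 and 0.64. Across the 85 pairs Pearson's r was 0.18 and Spearman's rho 0.08, given as a description, since members of a host and all points share libraries. In whole animals, fewer cells of a type and less RNA per cell cannot be told apart. The 20 germ line genes listed for reference were all lower, with a median of -1.57, and of the 22 somatic genes 14 were higher and none lower (1 was lower at an unadjusted p under 0.05), with a median of 0.46. Whether tissue composition contributed to the gap between hosts and snoRNAs was not tested.

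**Figure D3:**
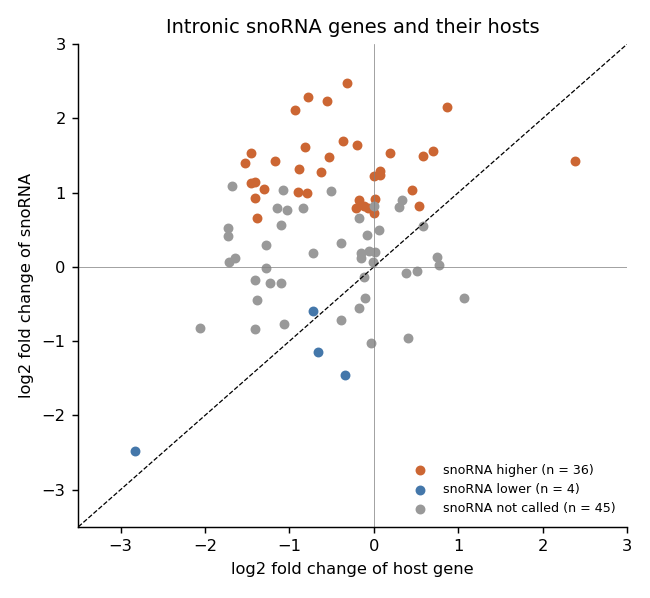
Log2 fold change of each intronic snoRNA gene against that of its host gene for the 85 pairs in which both were tested, coloured by the call of the snoRNA, with a dashed line where the values are equal. Of the 85 points, 70 lie above the dashed line, and 19 snoRNA genes called higher sit in hosts called lower.

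Ribosomal protein genes hosted 16 members in 11 genes, all of which were tested. Of these members 7 (43.75%) were higher and none lower by edgeR (also none at an unadjusted p under 0.05), with a median of 0.54. They include B0412.6, D1007.20, F28C6.11 and K11H12.12, described below as far lower in depletion replicate 1 than in replicate 2. For these the lack of a call comes with depletion libraries that disagree. Of the 71 tested members in other protein-coding genes, 42.3% were higher and 7.04% lower, with a median of 0.80. Both members of rps-12, a small-subunit ribosomal protein gene, rose: F54E7.10 from 876 and 642 counts to 1663 and 1092, and F54E7.11 from 553 and 405 to 692 and 554. Their log2 fold changes were 1.22 and 0.73, beside -0.0049 for rps-12. Both members of akir-1, the gene of a nuclear protein of the akirin family, also rose (E01A2.9 by 1.53 and E01A2.11 by 1.13), where akir-1 fell by 1.46. The members of air-1, which encodes the Aurora A kinase, had log2 fold changes of 0.53 and 0.42 that did not pass, where air-1 fell by 1.73. Of the 12 hosts with more than 1 member, nol-56 had the most, with 4 members. nol-56 encodes a core protein of box C/D snoRNPs. It had 11386 and 11426.5 counts in controls and 3016 and 3927 upon depletion, a log2 fold change of -1.41 ± 0.11. Of its members K07C5.11 rose by 1.14 and K07C5.12 by 0.92, while K07C5.10 and K07C5.18 did not pass the test.

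The tested genes of the snoRNP core proteins all fell. Of the 8 listed genes 7 were tested, all 7 were lower, and the median log2 fold change was -1.30. Of the tested protein-coding genes 33.5% were lower, and their median was 0.14. All 7 core genes had at least 1000 counts, and of all genes tested at that depth 50.04% were lower. The 20 germ line genes, all lower, moved with the core genes, and the part of tissue composition in this was not tested. fib-1, the fibrillarin methyltransferase of box C/D particles, had 14738 and 14182 counts in controls and 3074 and 4159 upon depletion, and fell by 1.69 ± 0.12 (adjusted p = 7e-06). The other box C/D proteins fell by 1.41 (nol-56), 1.17 (nol-58) and 1.30 (snu-13). Of the box H/ACA proteins, dkc-1, the pseudouridine synthase, had 8569, 8313, 2654 and 3543 counts and fell by 1.14. garr-1, matched by its sequence name, fell by 1.38 and Y48A6B.3, the NHP2 homolog, by 0.61. nola-3 was listed at 0 in all libraries. Of 29 listed factors of snoRNA assembly and processing (helicases, exosome and Integrator subunits), 26 were matched and 25 tested, and 24 were lower, with a median of -0.93. The exception was parn-1, the deadenylase gene, with 734, 610, 463 and 609 counts and a log2 fold change of -0.01 (adjusted p = 0.931). exos-4.1 was listed at 0. The attf-6 transcript itself, whose protein was the target, had 5310 and 5233 counts in controls and 2290 and 3504 upon depletion, a log2 fold change of -0.57 ± 0.13. The degron acts on the protein, so this value does not check the depletion.

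The depletion replicates differed for a group of snoRNA genes. Of the 90 members with at least 200 counts, 68 had a higher level in depletion replicate 1 than in replicate 2, with a median log2 ratio of 0.66 (in controls 0.29). Against this, 10 members were far lower in replicate 1, with a log2 ratio under -1.5 (CPM plus 0.1), a limit chosen after the values were seen. No member had a log2 ratio above 1.5 in the depletion pair. In the control pair none was beyond 1.5 in either direction, but the log2 ratios ran from -0.51 to 1.499, just short of 1.5. Over all 12502 genes with at least 200 counts, 0.296% were below the limit. The 10 members were low in a single library. F17C11.14, in an intron of the translation elongation factor gene eef-1G, had 537 and 408 counts in controls, 5 in depletion replicate 1 and 494 in replicate 2. C50C3.13, in an intron of the spliceosomal gene prp-8, had 235, 214, 7 and 327 counts in the same order. In each the value in replicate 2 was close to or above the controls.

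The other 8 were also lowest in depletion replicate 1. B0412.6, in an intron of the ribosomal protein gene rps-29, had 813 and 664 counts in controls, 57 in depletion replicate 1 and 1102 in replicate 2. D1007.20, in an intron of rpl-24.1, had 2303, 1876, 448 and 3310 counts. C17D12.8, in an intron of pcmd-1 on the opposite strand, had 247, 194, 22 and 501. F28C6.11 (rpl-26) had 380, 265, 42 and 369 counts, and K11H12.12 (rpl-15) had 659, 575, 219 and 911. Y46G5A.40 (pisy-1) had 257, 158, 103 and 501 counts. The nol-56 members K07C5.10 and K07C5.18 had 683, 512, 187 and 701 counts and 79, 68, 0 and 70 counts. The count of 0 allows up to 3 counts for counting error only.

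All 10 lie in introns of protein-coding genes, 9 on the host strand and 1 on the opposite strand, where 58 of the 90 members with this depth are intronic on the host strand. They are 127 to 161 bases long (median 133), and the 80 other members with this depth are 68 to 227 bases long (median 131), 34 of them within the same range. Neither difference was tested. Their hosts did not share the drop, with log2 ratios of depletion replicate 1 over 2 from -0.40 to 0.44, and neither did the members of these hosts outside the 10. B0412.7, the other member of rps-29, had 661, 526, 972 and 667 counts. F17C11.15, in eef-1G, had 5591, 5305, 5979 and 4706 counts, and K07C5.11, in nol-56, had 469, 353, 752 and 679. The member next to the limit, W05B2.9, had a log2 ratio of -1.22, and the closest one inside it, K07C5.10, -1.60. None of the 10 was called by edgeR in the fit to all 4 libraries described above (also none at an unadjusted p under 0.05), where their median log2 fold change was -0.16. Without a filter on low counts F17C11.14 and K07C5.18 were called lower and Y46G5A.40 higher, and with the replicate number as a block 6 were called lower and Y46G5A.40 higher. Their median log2 fold change without depletion replicate 1 was 0.72, a value that the choice of the 10 affects and that is given with no test. The cause of the drop was not tested.

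**Figure D4:**
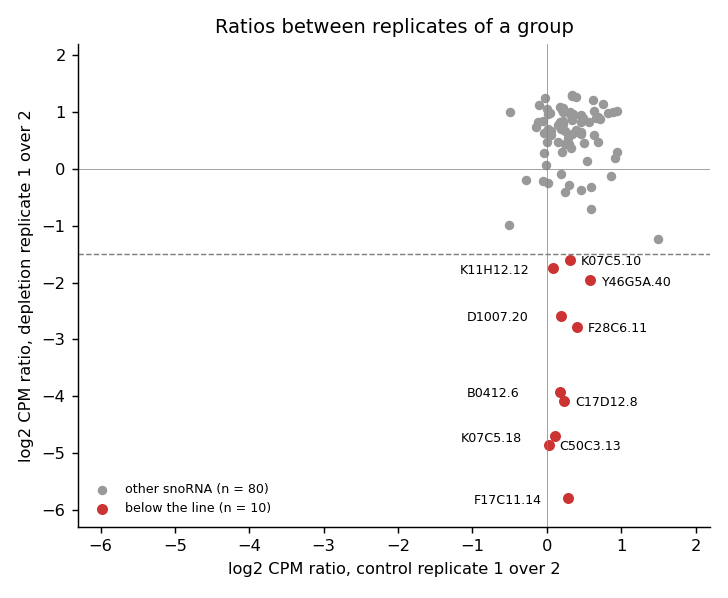
Log2 CPM ratio of depletion replicate 1 over 2 against that of control replicate 1 over 2 for the 90 snoRNA genes with at least 200 counts, with a dashed line at -1.5. The 10 labelled genes below the line have control ratios between 0.03 and 0.58, and most other genes have depletion ratios above 0.

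With a depletion library left out, the depletion group holds 1 library, which is assumed to vary as the controls do. Without depletion replicate 1 the median log2 fold change of the 177 tested members was 0.50, beside 0.10 for all genes tested. Without depletion replicate 2 the median of the 173 tested members was 0.59, beside 0.08 for all genes tested. DESeq2 called 47 members higher and 7 lower, which is 23.4% and 3.48% of the 201 members. Of the 27114 genes with a DESeq2 fold change, 12.6% were higher and 20.0% lower. The DESeq2 median over all 201 members was 0.41, and all 47 were among the 61 called higher by edgeR.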

How the data were processed

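Whole adult animals were profiled by ribosomal RNA-depleted, strand-specific mRNA-seq, although the titles name small RNA. Per the methods, the authors trimmed reads with Trim Galore, aligned them with STAR to WS279 keeping reads with at most 10 alignments, removed orphan mates, and deposited estimated counts per gene from featureCounts with multi-mapped reads divided among their alignments; versions are not given in the sources used here. The 181 transposon rows were left out. Of 46934 gene IDs, 46924 matched the Ensembl release 115 annotation of WBcel235, the assembly of WS279. Counts were rounded and tested with edgeR 4.0.16 (filterByExpr with a minimum count of 10, TMM, quasi-likelihood test, two-sided, Benjamini-Hochberg over all genes; R 4.3.3). DESeq2 1.42.0 was an alternative. Each SE is the log2 fold change divided by the square root of F. Levels are CPM scaled by TMM. Fits were tested on simulated data. Members and lists were chosen with earlier results of these data known.

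Genes are named by this rule: the 10 largest increases and 10 largest decreases among called members with groups that do not overlap and 50 counts or more in each library of the group with the higher level, the 10 members highest per kilobase, members sharing a host with these, their hosts, the snoRNP core genes and attf-6. Other members were chosen after their values were seen. The labels do not say that replicates came from separate cultures, so p-values measure the spread between these libraries. Counting intervals cover counting error only. The planned search for box C/D and H/ACA letters was not run, since no genome sequence was used here.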

Additional observations from a re-analysis of the deposited data

How the results depend on the processing

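Over all settings the median log2 fold change stayed above 0 for all members, for those in host introns and for those elsewhere. Without single libraries the count of higher members ran from 50 to 74 and that of lower members from 5 to 30, and the medians from 0.50 to 0.80 (all), 0.42 to 0.75 (host introns) and 0.51 to 0.90 (elsewhere). The lowest count of lower members came without control replicate 1 and the highest without depletion replicate 2. Scaling to somatic genes gave 33 higher members and medians of 0.24, 0.28 and 0.21. The number of lower members was 7 under DESeq2, 5 with at least 50 counts in both libraries of a group and 17 with no filter. The medians were 0.41, 0.31 and 0.51 under DESeq2, and 0.51, 0.40 and 0.60 with no filter. With at least 50 counts they were 1.00 (all) and 1.16 (elsewhere), and DESeq2's size factors gave 0.56 (elsewhere). DESeq2 and the fit with no filter gave a log2 fold change for all 201 members, and the stricter filter for fewer. The causes of the other shifts were not tested.

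Control and depletion libraries share replicate numbers, but nothing says that the numbers mark a shared culture. Across all 16591 genes tested, deviations of replicate 1 from the group means had a correlation of -0.02 between the groups. This value does not describe the snoRNA members alone. Of the 201 members, 142 were higher in replicate 1 than in replicate 2 in controls and 108 upon depletion. A fit with the replicate block called 70 members higher and 17 lower, with a median of 0.69. In the study's supplementary tables the columns of control replicates 1 and 2 seem exchanged relative to the deposited labels, which were used here.

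Of the 22 named members called, 19 kept call and sign under all 11 alternative fits that tested them; Y24D9A.9, Y92C3B.4 and F26D10.24 did not. ZK185.9, not called in the edgeR test of the report, was called lower under 4 alternatives on all libraries. Of the 10 members low in depletion replicate 1, the replicate block called 6 lower (B0412.6 at -0.89, C50C3.13 at -1.04, F17C11.14 at -1.64, F28C6.11 at -0.83, K07C5.18 at -1.38 and D1007.20) and Y46G5A.40 higher (0.54). Each of the 10 changed sign under at least 1 alternative. They were chosen for their difference between the depletion replicates, so leaving out either of these libraries must move their fold changes. The ranges without single libraries given below thus restate that choice. C17D12.8 was at -0.32 with the replicate block and -0.033 after scaling to somatic genes. D1007.20 was at -0.051 with DESeq2's size factors, -0.056 under DESeq2, -0.39 with the replicate block and -0.42 after scaling to somatic genes, and K11H12.12 at -0.0034, -0.011, -0.10 and -0.37. Without single libraries the log2 fold changes ran from -3.27 to 0.74 (B0412.6), from -2.90 to 1.35 (C17D12.8), -4.57 to 0.71 (C50C3.13), -1.80 to 0.83 (D1007.20), -6.11 to 0.23 (F17C11.14), -2.52 to 0.36 (F28C6.11), -1.25 to 0.40 (K07C5.10), -1.08 to 0.73 (K11H12.12) and -0.59 to 1.44 (Y46G5A.40). K07C5.18 ran from -9.07 to 0.10, where the lower value compares a library at 0 and depends on the prior count.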

Other observations

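The drop in ATTF-6 depletion replicate 1 was also seen outside the snoRNA genes, in groups chosen after their values were seen. Of the 42 snRNA genes with at least 200 counts, 10 had a log2 CPM ratio of depletion replicate 1 over 2 under -1.5, and none did in the control pair. These 10 were 121 to 126 bases long and all had fractional counts, so they share reads with near-identical copies. Their summed counts were 6844 and 4249 in controls, 245 in depletion replicate 1 and 3727 in replicate 2. The median ratio of the 42 snRNA genes was 0.73, so the rest were mostly higher in replicate 1.

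Mitochondrial genes showed it as well. Of the 13 genes of the mitochondrial genome with this depth, 8 were below the limit, 6 of them protein-coding and 2 ribosomal RNA. The 11 protein-coding genes had a median ratio of -1.75. ND6, one of the 8 and a subunit of respiratory complex I, had 324, 282, 69 and 291 counts in control replicates 1 and 2 and depletion replicates 1 and 2. COX3, a subunit of cytochrome c oxidase with a ratio of -1.04 that did not reach the limit, had 19947, 19107, 8340 and 21085. Among all 11991 protein-coding genes with this depth, 14 were below the limit and 7 were beyond it in the other direction. No explanation for the drop was tested.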
